A study of Isodiametra pulchra with 2 samples.

Results

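*Isodiametra pulchra* is a marine worm of the acoels. In 2 single-cell libraries made from its hatchlings, 7758 cell barcodes were called, and 176 of them carried the transcript TRINITY_DN27834_c0_g1 at a set minimum and are described here as positive barcodes. A barcode is the sequence tag shared by all RNA captured in 1 droplet, and a UMI (unique molecular identifier) stands for 1 captured RNA molecule. Barcodes were called at a total of at least 166 UMIs in library 1 and 1027 UMIs in library 2. Positive barcodes had at least 1 UMI of TRINITY_DN27834_c0_g1 in library 1 and at least 2 UMIs in library 2. They numbered 109 of 4483 called barcodes in library 1 (2.43%, exact 95% binomial interval 2.0 to 2.93%) and 67 of 3275 in library 2 (2.05%, 1.59 to 2.59%). All intervals cover counting error only. The feature itself chose the barcodes, so its level in them is no result, and every test below leaves it out.

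Acoels are bilaterally symmetrical worms without a through gut; food passes from the mouth into a digestive syncytium, and the body is covered by a ciliated epidermis. New cells of all kinds come from neoblasts, a population of dividing stem cells, and muscle, nerve, gland and sensory cells make up much of the remaining body. Droplet sequencing of dissociated animals sorts such cells by their transcripts, with free RNA from broken cells present in every droplet. The features are Trinity transcriptome assembly identifiers, which the files pair with no gene name, so the positive barcodes are described by identifiers and not as a named cell type. The reference list holds 2 features of the same assembly component. The other, TRINITY_DN27834_c0_g3, had 1 UMI in the positive barcodes of library 1 and 0 UMIs in those of library 2, and 0 UMIs in the other called barcodes of both, so it adds nothing to the choice.

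Both libraries came from wild-type hatchlings fed on diatoms, dissociated with collagenase and processed with 10x Genomics 3′ chemistry of versions 2 and 3. They form 1 group with no treatment, and nothing states that they came from separate cultures, so p-values measure the spread between these 2 libraries. Library 1 held 6581711 UMIs and library 2 held 34060611 UMIs. The called barcodes of the libraries shared 0 barcode sequences. The median total was 536 UMIs in positive barcodes and 286 UMIs in the other called barcodes of library 1. For library 2 it was 2269 UMIs in positive barcodes and 1510 UMIs in the others. Positive barcodes were thus the deeper ones in both libraries, although their ranges of totals overlapped with those of the others. A minimum number of UMIs is reached more readily by deep barcodes, so this is partly built into the choice. The median number of features per barcode was 371 in positive barcodes and 241 in the others of library 1, and 1010 in positive barcodes and 814.5 in the others of library 2. With each barcode thinned to the calling minimum of its library, the order turned round. The medians were then 147 features in positive barcodes and 152 in the others of library 1, and 546 in positive barcodes and 602 in the others of library 2.

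The feature was scarce even where it was found. In library 1, 82 of the 109 positive barcodes had 1 UMI, 18 had 2 UMIs, 9 had 3 or more and the highest had 5. In library 2, 35 of 67 had 2 UMIs, 32 had 3 or more and the highest had 11. Just outside the minimum lay 115 barcodes of library 2 with 1 UMI, with a median total of 1747 UMIs, against 1887 UMIs in those with 2. Positive barcodes held 31.5% of all UMIs of the feature in library 1 and 13.9% in library 2. Uncalled barcodes held 68.5% and 78.3% of them, close to the part of all UMIs that lay there, since 26.1% of all UMIs were in called barcodes in library 1, and 20.6% in library 2.

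Free RNA can give a UMI to a barcode, so the feature was also counted in empty droplets. Empty droplets were taken as barcodes within 20% of the most common total, which was 60 UMIs in library 1 and 331 UMIs in library 2. The feature had 0.647 UMIs per 10000 UMIs in the 44395 empty droplets of library 1 and 0.412 per 10000 in the 35083 of library 2. At that rate the called barcodes of library 1 would include 108.8 with at least 1 UMI, and 109 were found. This applies the rate to the full total of each called barcode, as though all of its UMIs were free RNA. The number found in library 1 was thus close to that at the empty-droplet rate, and the share is not read as a share of expressing cells. The match holds only over all called barcodes. In the clusters described below, the level per UMI in library 1 was 10.6 times the empty-droplet level in cluster 4. It was 0.426 times that level in all other clusters together. The match does not set the part of free RNA, which was not tested. The counts found and those at the empty-droplet rate part at higher numbers. In library 1, 27 called barcodes had at least 2 UMIs, where the empty-droplet rate gives 2.22, and 9 had at least 3, where it gives 0.0843. In library 2, 67 had at least 2 UMIs against 18.1 at that rate, and 32 had at least 3 against 1.48. The UMIs were thus more concentrated in single barcodes than an even spread over all UMIs gives. The empty droplets of library 2 showed such concentration too, with 26 at 2 or more UMIs against 3.2 at that rate, and 1 at 3 or more against 0.0147.

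To see where the feature lies among cells without using it, the called barcodes of both libraries were clustered without any feature of its component, which gave 28 clusters. Cluster 4 held 67 of the 109 positive barcodes of library 1 (61.5%, 51.7 to 70.6%) and 195 of the 4374 others (4.46%, 3.87 to 5.11%). In library 2 it held 60 of 67 positive barcodes (89.6%, 79.7 to 95.7%) and 237 of 3208 others (7.39%, 6.51 to 8.35%). Cluster 4 is drawn from both libraries, with 262 and 297 barcodes. It was singled out because it held the most positive barcodes, so these shares carry no test. With totals limited to the middle 50% of those of positive barcodes, 56.4% of 55 positive barcodes and 4.55% of 2331 others lay in cluster 4 in library 1. In library 2 these were 90.9% of 33 positive barcodes and 7.92% of 997 others. Depth was closer but not equal in this subset, with median totals of 536 UMIs in positive barcodes and 399 UMIs in the others of library 1, and 2269 UMIs and 2064 UMIs in library 2. The 42 positive barcodes of library 1 outside the cluster were spread over 14 further clusters, 11 of them in cluster 1, and 41 of the 42 had 1 UMI. Of the 7 outside it in library 2, 6 had 2 UMIs.

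The level of the feature over whole clusters restates the values that chose the barcodes and cluster 4, and is given as a description. It is given as CPM, its UMIs over all UMIs of the same barcodes, scaled to the usual fixed total. Cluster 4 had 683 CPM in library 1, from 107 UMIs, against 27.6 CPM over all other clusters, from 43 UMIs. In library 2 it had 354 CPM, from 234 UMIs, against 13.7 CPM, from 87 UMIs. These are ratios of 24.8 and 25.8. Cluster 4 ranked first of 28 in both libraries, and the cluster that came next was not the same one in both. The next cluster had 127 CPM in library 1, where cluster 26 had 1 UMI, and 48.3 CPM in library 2, where cluster 14 had 4 UMIs. Against the empty droplets of the same library, the level per UMI in cluster 4 was 10.6 times as high in library 1 and 8.61 times as high in library 2, while all other clusters together were at 0.426 and 0.333 times the empty-droplet level. The share of barcodes with at least 1 UMI was 25.6% in cluster 4 (20.4 to 31.3%, median total 349 UMIs) and 0.995% in all other clusters (0.718 to 1.34%, 285 UMIs) in library 1. The corresponding shares of library 2 were 35.0% (29.6 to 40.7%, 1652 UMIs) and 2.62% (2.08 to 3.26%, 1511 UMIs).

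**Figure D1:**
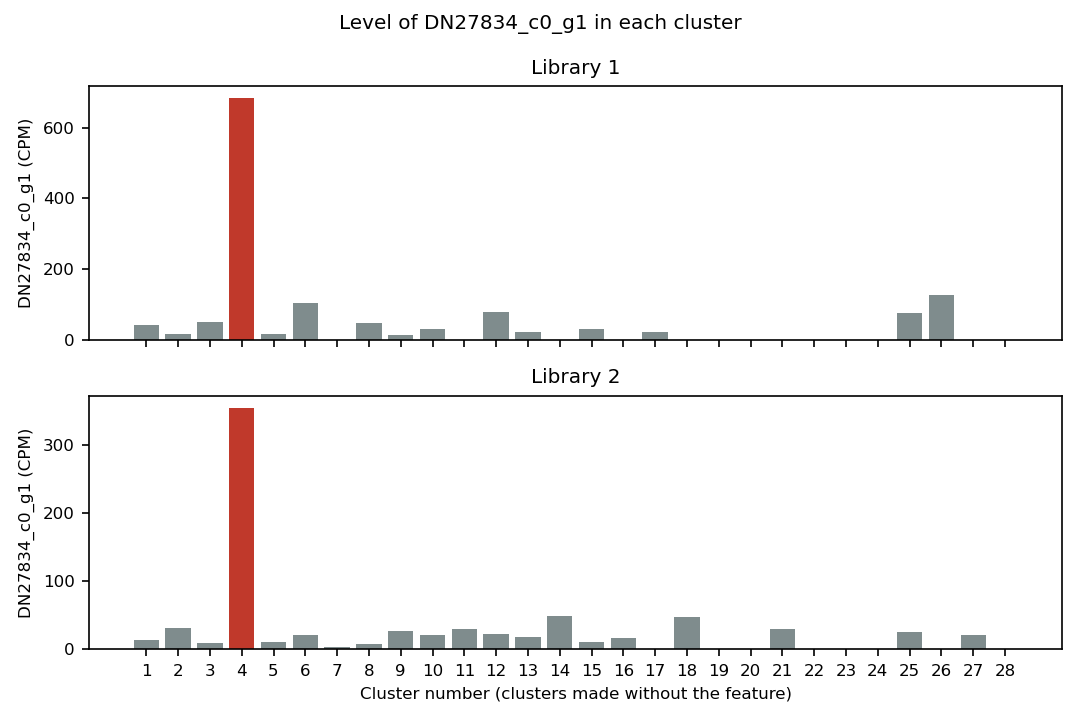
Level of TRINITY_DN27834_c0_g1 (y axis, CPM over all barcodes of a cluster) in the 28 clusters made without it (x axis), in library 1 above and library 2 below. Cluster 4, in red, stands at 683 and 354 CPM, and the next cluster at 127 and 48.3 CPM.

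Placement followed the number of UMIs of the feature. In library 1, cluster 4 held 4.46% of barcodes with 0 UMIs, 50% of those with 1 (38.7 to 61.3%), 94.4% of those with 2 (72.7 to 99.9%) and all 9 with 3 or more (lower bound 66.4%). In library 2, it held 6.24% of barcodes with 0 UMIs, 38.3% with 1 (29.4 to 47.8%), 82.9% with 2 (66.4 to 93.4%) and 96.9% with 3 or more (83.8 to 99.9%). Median totals along this series were 286, 395.5, 1120 and 873 UMIs in library 1, and 1503, 1747, 1887 and 2816 UMIs in library 2. Depth thus rose along the series in library 2, and in library 1 up to 2 UMIs but not from there to 3 or more. Its part in the placement was not tested.

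**Figure D2:**
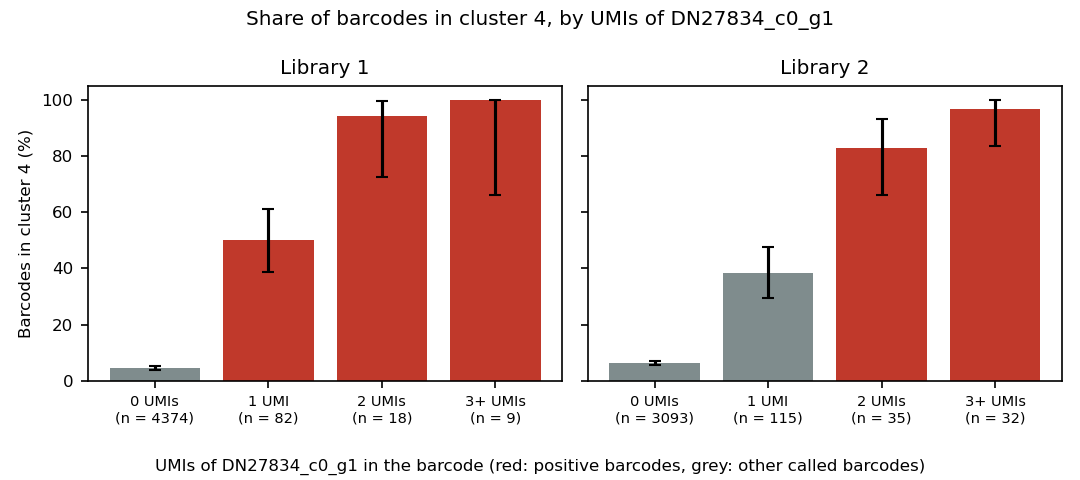
Share of called barcodes that lay in cluster 4 (y axis, percent) by the number of UMIs of TRINITY_DN27834_c0_g1 in the barcode (x axis), for each library. Bars are shares, error bars exact 95% binomial intervals, red bars positive barcodes and grey bars others; the share is 4.46% and 6.24% at 0 UMIs and 100% and 96.9% at 3 or more.

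The question which other transcripts mark positive barcodes was addressed with UMI counts summed over positive barcodes and over the other called barcodes of each library. These 4 sums were compared with edgeR's quasi-likelihood test, with library as a block. Of 9935 features tested, 801 (8.06%) were higher in positive barcodes at a Benjamini-Hochberg adjusted p under 0.05 and 640 (6.44%) were lower. Of the higher ones, 772 were higher in each library, and 473 had a log2 fold change above 2. The median log2 fold change was 2.26 among the higher ones, -2.19 among the lower ones and -0.20 over all features tested. The higher features together made up 39.4% of the UMIs of positive barcodes and 13.6% of those of the others in library 1, and 39.5% and 19.3% in library 2. Scaling by library totals alone, which put the median of all features at -0.47, gave 670 higher and 1096 lower. The 4 sums leave 1 residual degree of freedom per feature, so the spread behind each p is nearly all shared over features. Without library as a block, 0 features were called either way by edgeR (922 at an unadjusted p under 0.05), and DESeq2 with the block called 509 higher and 89 lower.

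The 6 features with the smallest adjusted p were picked out after their values were seen, and 4 of them had a UMI in over 50% of positive barcodes of each library. TRINITY_DN19602_c0_g1 had 12468 CPM in positive barcodes and 1307 CPM in the others of library 1, and 2560 CPM in positive barcodes and 281 CPM in the others of library 2. Its log2 fold change was 3.46 ± 0.22 (SE, n = 2 libraries; edgeR adjusted p = 3.7e-52). It had a UMI in 67.9% of positive barcodes and 24.6% of the others in library 1, and in 83.6% and 22.3% in library 2. This transcript was thus about as much higher in each library (9.54-fold and 9.10-fold), although its level differed between the libraries. TRINITY_DN32540_c0_g1 had 7837 CPM in positive barcodes against 907 CPM in library 1, and 4950 CPM against 583 CPM in library 2 (log2 3.34 ± 0.22). TRINITY_DN22978_c0_g3 had 6856 CPM against 721 CPM in library 1, and 5290 CPM against 835 CPM in library 2 (log2 3.19 ± 0.22). In library 2, TRINITY_DN32540_c0_g1 had a UMI in 92.5% of positive barcodes and 38.4% of the others. TRINITY_DN22978_c0_g3 had one in 94.0% and 46.3%, so both were also found in many of the other called barcodes. Empty droplets of libraries 1 and 2 held TRINITY_DN32540_c0_g1 at 1427 and 950 CPM, and TRINITY_DN22978_c0_g3 at 1259 and 1363 CPM. They held TRINITY_DN19602_c0_g1 at 1845 and 479 CPM. Each of these levels was above that in the others and below that in positive barcodes. The part of free RNA was not tested.

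TRINITY_DN30128_c0_g2 was less widespread among the others. It had a UMI in 51.4% of positive barcodes and 4.28% of the others in library 1, and in 97.0% and 21.0% in library 2. Its level was 1572 CPM in positive barcodes against 141 CPM in library 1, and 3110 CPM against 315 CPM in library 2 (log2 3.62 ± 0.26). TRINITY_DN33011_c2_g3 had 1329 CPM in positive barcodes against 141 CPM in library 1, and 1975 CPM against 182 CPM in library 2 (log2 3.58 ± 0.27). It was found in 40.4% of positive barcodes and 3.59% of the others in library 1, and in 80.6% and 15.6% in library 2. The remaining one, TRINITY_DN23962_c0_g3, is described with the next set. Empty droplets held TRINITY_DN30128_c0_g2 at 192 CPM in library 1 and 255 CPM in library 2, below its level in positive barcodes of both.

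The features with the largest fold changes among those with a UMI in at least 5% of positive barcodes of each library were rarer. The 20 named had log2 fold changes from 3.82 to 4.35, a UMI in a median of 14.7% of positive barcodes and 0.606% of the others in library 1, and 23.9% and 1.92% in library 2. The naming rule required a higher level in positive barcodes than in the others of both libraries. Folds over the other called barcodes were 9.0 to 47.0 in library 1 and 6.48 to 26.5 in library 2. All 20 were also above their level in the empty droplets of both libraries. TRINITY_DN28366_c0_g2 had the largest fold change (log2 4.35 ± 0.75, edgeR adjusted p = 2.1e-07), from 116 CPM in positive barcodes against 2.47 CPM in library 1 and 60.0 CPM against 5.73 CPM in library 2, but rests on 11 and 12 UMIs in positive barcodes. Its call was lost in the middle 50% of totals (log2 3.11, edgeR adjusted p = 0.15). It passed the low-count filter before the test only through its counts in positive barcodes, so its fold change is a description. The same holds for TRINITY_DN25409_c1_g4, TRINITY_DN29949_c0_g1, TRINITY_DN21780_c0_g1, TRINITY_DN20068_c0_g1 and TRINITY_DN26092_c0_g2. TRINITY_DN23962_c0_g3 had 991 CPM against 78.9 CPM in library 1, and 265 CPM against 13.4 CPM in library 2 (log2 4.19 ± 0.31, edgeR adjusted p = 6.0e-38). It was found in 31.2% of positive barcodes and 2.40% of the others in library 1, and in 40.3% and 2.12% in library 2.

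TRINITY_DN18264_c0_g2 had 633 CPM in positive barcodes against 38.9 CPM in library 1, and 265 CPM against 26.6 CPM in library 2. TRINITY_DN22572_c0_g1 had 443 CPM against 27.8 CPM, and 275 CPM against 26.7 CPM. TRINITY_DN20278_c0_g1 had 559 CPM against 41.9 CPM, and 295 CPM against 25.6 CPM, and in library 2 it was found in 50.7% of positive barcodes and 3.90% of the others. TRINITY_DN29408_c0_g1 was less alike between the libraries, with 548 CPM against 21.6 CPM in library 1 and 40.0 CPM against 6.17 CPM in library 2. TRINITY_DN29949_c0_g1 and TRINITY_DN29949_c1_g3 carry the same assembly number, and their reads may be split by the counting. The other 12 of the 20 were TRINITY_DN25409_c1_g4, TRINITY_DN19915_c0_g2, TRINITY_DN21780_c0_g1, TRINITY_DN20068_c0_g1, TRINITY_DN19028_c0_g1, TRINITY_DN28107_c1_g2, TRINITY_DN26730_c0_g7, TRINITY_DN25184_c0_g2, TRINITY_DN22605_c3_g2, TRINITY_DN27467_c3_g1, TRINITY_DN26092_c0_g2 and TRINITY_DN32547_c0_g1.

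**Figure D3:**
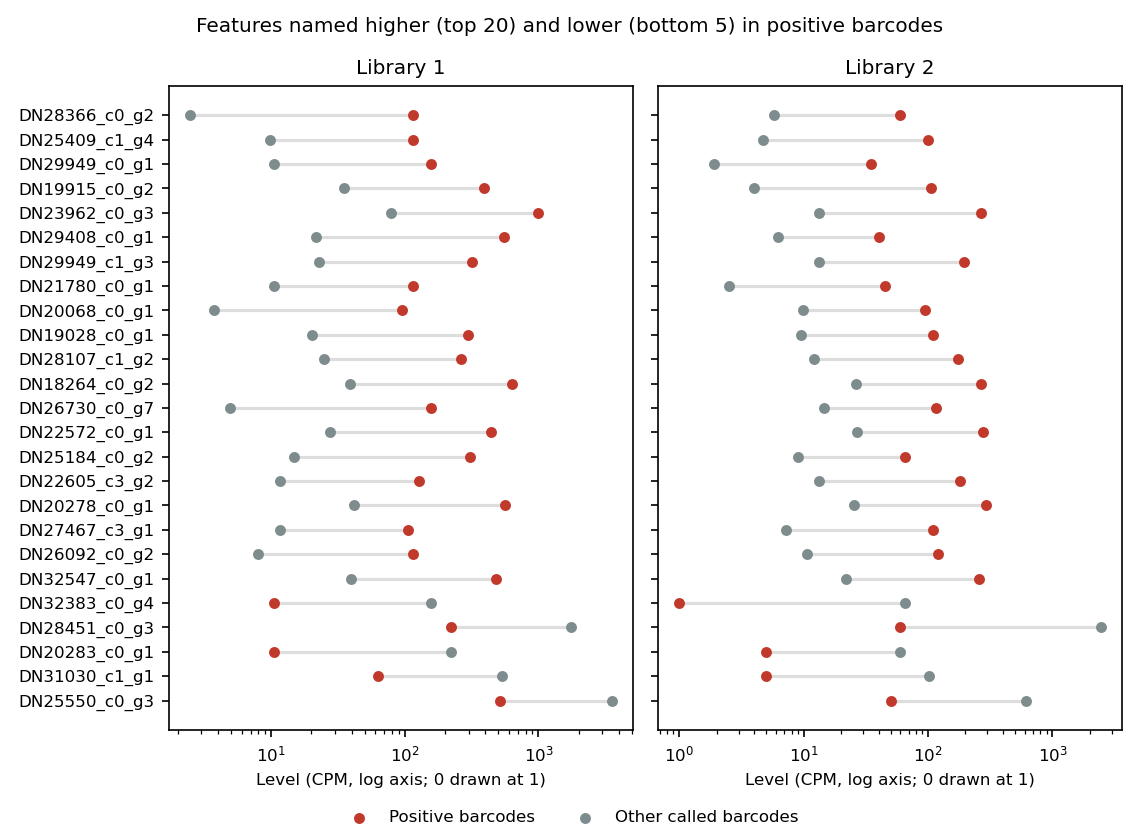
Level (x axis, CPM on a log axis, 0 drawn at 1) of the 20 features named higher and the 5 named lower (y axis) in positive barcodes (red) and other called barcodes (grey), for each library. The upper 20 are higher in positive barcodes, by 9.0-fold to 47.0-fold in library 1 and 6.48-fold to 26.5-fold in library 2. The lower 5 are lower in both libraries. The naming rule required these directions.

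Features picked in 1 library were followed in the other. The 20 features with the largest fold in library 1 alone (at least 10 UMIs in positive barcodes, and a UMI in at least 5% of them) were all higher in library 2, with a median log2 ratio of 2.68 there (1.36 to 3.63), against a median of -0.49 over all features tested. The 20 chosen in library 2 were all higher in library 1, with a median of 3.32 (2.65 to 3.74), against -0.47 over all features tested. These ratios are of CPM with 1 CPM added, and 33.0% of all tested features were higher in positive barcodes of library 1 and 31.4% in those of library 2. The features were picked among those tested, and the low-count filter before the test used the sums of both libraries. Agreement between the libraries is thus partly built in, and the median over all features tested is not a like baseline. The values are a description.

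The number of the 20 named higher features was also counted in single barcodes, and many positive barcodes carried several at once, more so in library 2. In library 1 the median was 2 of 20 in positive barcodes and 0 in the others, and 46.8% of positive barcodes had at least 3, against 1.10% of the others. In library 2 the median was 5 of 20 in positive barcodes and 0 in the others, and 77.6% of positive barcodes had at least 3, against 4.55% of the others. Thinned to the calling minimum, 5.50% of positive barcodes and 0.206% of the others of library 1 had at least 3, and 49.3% of positive barcodes and 2.06% of the others of library 2. In library 1, 39 positive barcodes (35.8%) had none of the 20, all of them with 1 UMI of TRINITY_DN27834_c0_g1, and in library 2, 2 positive barcodes (2.99%) had none. The features were chosen on these barcodes, so the contrast is a description.

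**Figure D4:**
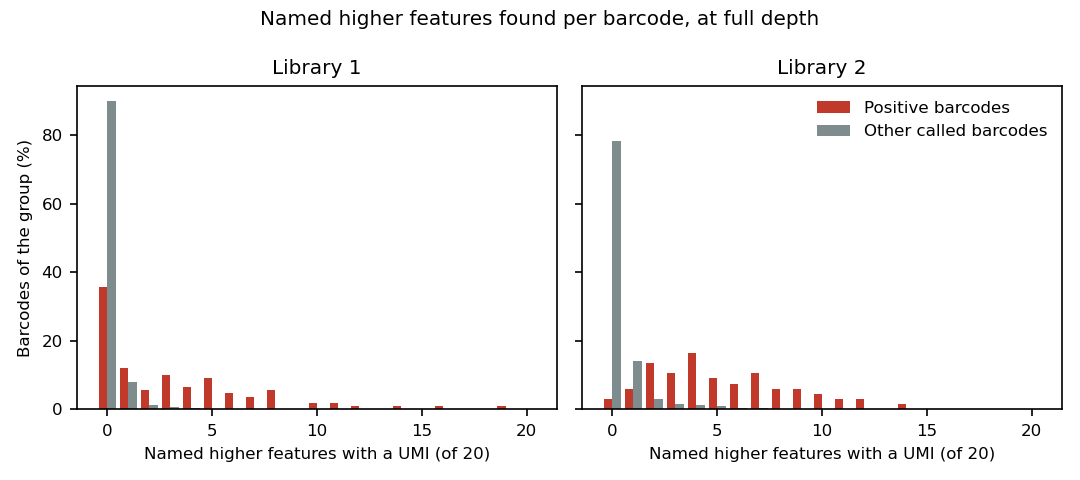
Number of the 20 named higher features with at least 1 UMI in a barcode (x axis) and the percent of positive barcodes (red) and of other called barcodes (grey) at each number (y axis), at full depth, for each library. None of the 20 was found in 35.8% of positive barcodes and 89.9% of the others in library 1, and in 2.99% and 78.2% in library 2.

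The summed level of the 20 also followed the number of UMIs of TRINITY_DN27834_c0_g1. The 20 were chosen on the positive barcodes, so the step from 0 UMIs to positive barcodes is a description. Median totals differed along the series too, and their part was not tested. In library 1 it was 440 CPM in barcodes with 0 UMIs, 4881 CPM with 1 and 9105 CPM with 2 or more. The series in library 2 was 195 CPM with 0 UMIs, 1233 CPM with 1, 2229 CPM with 2 and 3455 CPM with 3 or more. Of the 20, 18 were higher above the minimum than at it in each library. Barcodes of library 2 just outside the minimum thus had a level between those with 0 and those with 2 UMIs.

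Inside cluster 4, positive barcodes and the others differed less. The summed level of the 20 was 7762 CPM in positive barcodes and 4522 CPM in the others of library 1, and 3338 CPM and 1822 CPM in library 2. Depth was not alike inside the cluster. Median totals there were 764 UMIs in positive barcodes and 301 UMIs in the others of library 1, and 2249 UMIs and 1508 UMIs in library 2. The part of depth in these differences was not tested. Of 2400 features tested inside the cluster, a comparison added after seeing the data, 8 were higher and 21 lower in positive barcodes (edgeR, library as a block; 259 at an unadjusted p under 0.05). Among the higher ones, TRINITY_DN24023_c0_g1 had 366 CPM in positive barcodes against 199 CPM in library 1, and 535 CPM against 167 CPM in library 2 (edgeR adjusted p = 0.0035). TRINITY_DN28107_c1_g2, one of the 20, had 327 CPM against 187 CPM, and 208 CPM against 54.9 CPM (edgeR adjusted p = 0.044). Among the lower ones, TRINITY_DN20392_c0_g1 had 236 CPM against 262 CPM in library 1 and 125 CPM against 1465 CPM in library 2 (edgeR adjusted p = 1.7e-10), so that difference lies in library 2. TRINITY_DN28277_c0_g4, higher in positive barcodes over all called barcodes, was lower inside the cluster, with 7002 CPM against 8147 CPM in library 1 and 119 CPM against 654 CPM in library 2 (edgeR adjusted p = 0.0012). Of the 20, 19 could be tested inside the cluster. These 19 were higher in positive barcodes, but only 1 was called. The median log2 fold change was 0.69 there and 3.91 over all called barcodes. The 6 features with the smallest adjusted p were also higher there, with a median of 0.41, and 0 were called. The 20 and the 6 were chosen on sums that include the positive barcodes of cluster 4. Their direction inside it is thus partly built in and is a description.

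Outside cluster 4, 6 of 9579 features tested were higher in positive barcodes and 24 were lower (edgeR; 559 at an unadjusted p under 0.05), also a comparison added after seeing the data. There the summed level of the 20 was 435 CPM in positive barcodes and 227 CPM in the others of library 1, and 601 CPM and 115 CPM in library 2. In these positive barcodes 1 UMI stands for 54.3 CPM in library 1 and 31.6 CPM in library 2, so their sums rest on few UMIs. The positive barcodes outside it numbered 42 in library 1 and 7 in library 2. The 20 were chosen on sums that include them, so this contrast is a description too. Median totals outside it were 300.5 UMIs in positive barcodes and 285 UMIs in the others of library 1. In library 2 they were 2678 UMIs and 1510 UMIs. The clusters were built from the same transcripts, and fewer features could be tested inside cluster 4 than over all called barcodes.

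The share of positive barcodes differed with depth, which a minimum number of UMIs partly builds in. Over all called barcodes, the share of positive ones in library 1 was 1.37%, 1.66%, 1.34% and 5.34% from the lowest to the highest of 4 equal classes of totals, and in library 2 it was 0.490%, 1.10%, 2.32% and 4.27%. Within cluster 4 it was 10.8%, 12.5%, 17.9% and 60.6% in library 1, and 6.85%, 14.7%, 27.0% and 32.0% in library 2. In the highest class of cluster 4 the exact interval was 47.8 to 72.4% in library 1 and 21.7 to 43.8% in library 2. Absence of the feature from a shallow barcode of cluster 4 is therefore not read as absence from the cell. With barcodes limited to the middle 50% of the totals of positive ones, 360 features were higher and 202 lower (edgeR), and with every barcode thinned to the calling minimum 325 were higher and 120 lower.

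**Figure D5:**
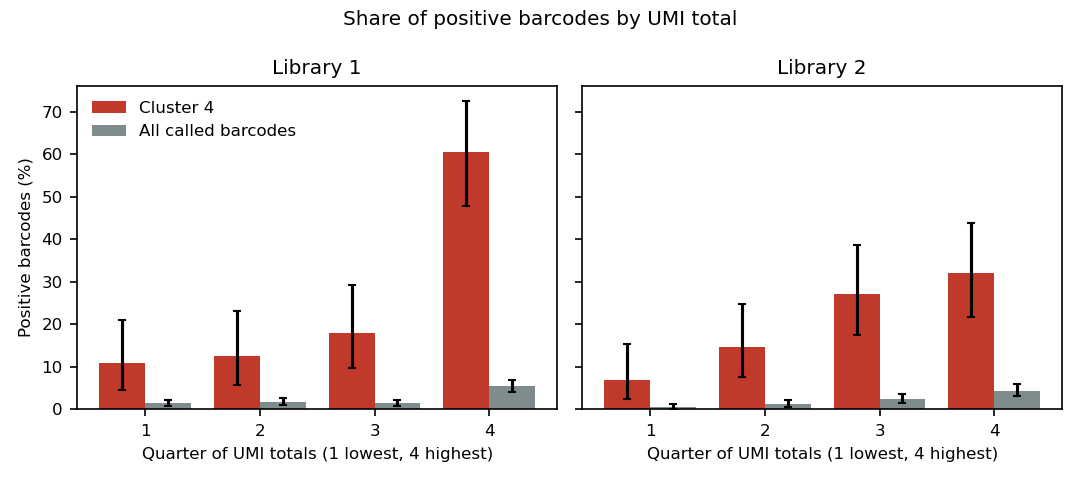
Share of barcodes that were positive (y axis, percent, with exact 95% binomial intervals) by 4 equal classes of UMI totals (x axis, classes taken within each set), in cluster 4 (red) and over all called barcodes (grey), for each library. In the highest class the share is 60.6% in cluster 4 and 5.34% over all called barcodes in library 1, and 32.0% and 4.27% in library 2.

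Of the features lower in positive barcodes, the 5 named were all below their level in the empty droplets of both libraries. TRINITY_DN28451_c0_g3 had 222 CPM in positive barcodes against 1752 CPM in the others of library 1, and 60.0 CPM against 2452 CPM in library 2 (log2 -3.88 ± 0.30, edgeR adjusted p = 3.0e-34). It was found in 15.6% of positive barcodes and 10.1% of the others in library 1, so its level there was lower although its share of barcodes was higher. With a minimum of 1 UMI in both libraries its call was lost (log2 -0.53). TRINITY_DN25550_c0_g3 had 517 CPM against 3534 CPM in library 1, and 50 CPM against 615 CPM in library 2. TRINITY_DN31030_c1_g1 had 6 and 1 UMIs in positive barcodes, against 535 CPM and 102 CPM in the others. TRINITY_DN20283_c0_g1 had 1 UMI in positive barcodes of each library, against 221 CPM and 59.9 CPM in the others. TRINITY_DN32383_c0_g4 had 1 and 0 UMIs, against 158 CPM and 64.8 CPM in the others. The summed level of the 5 was also low in the other barcodes of cluster 4. Inside it, they summed to 785 CPM in positive barcodes and 1532 CPM in the others of library 1, and to 100.98 CPM and 364 CPM in library 2, whereas the others outside it had 6444 CPM in library 1 and 3522 CPM in library 2.

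Of 13 features that mark other groups of cells in the same libraries, 11 were tested, 0 were higher and 6 were lower (edgeR), beside 8.06% higher and 6.44% lower of all features tested. At that background, 0 of 11 higher is not a result about these features. They were picked in the same libraries as marks of other groups. A lower level in positive barcodes is thus partly built in, and 6 of 11 lower is a description. The 6 were TRINITY_DN26570_c0_g1, TRINITY_DN20392_c0_g1, TRINITY_DN30860_c0_g6, TRINITY_DN29924_c0_g1, TRINITY_DN23294_c1_g2 and TRINITY_DN31468_c1_g5. The call of TRINITY_DN26570_c0_g1 held under every alternative run except that without library as a block (edgeR adjusted p = 0.27), and each of the other 5 was lost in the middle 50% of totals or after thinning. TRINITY_DN26570_c0_g1 had 0 and 1 UMIs in positive barcodes, against 93.7 CPM in the others of library 1 and 661 CPM in those of library 2. TRINITY_DN20392_c0_g1 had 316 CPM in positive barcodes against 802 CPM in library 1, and 110 CPM against 1594 CPM in library 2, but was found in 18.3% of positive barcodes and 8.80% of the others of library 1. TRINITY_DN32476_c1_g1 and TRINITY_DN23946_c0_g1, which were not tested, had 0 UMIs in the 67 positive barcodes of library 2 and a UMI in 2.71% and 1.90% of the others, so a difference was not detectable at this number of barcodes.

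A single barcode can dominate such sums. Of the 197 UMIs of TRINITY_DN22219_c0_g1 in positive barcodes of library 1, 189 came from 1 barcode, and the feature was found in 8.26% of positive barcodes and 7.0% of the others. In positive barcodes of library 2 it had 1 UMI. It did not pass the test (log2 -0.97, edgeR adjusted p = 0.66), but this p is larger than the F statistic of the same fit gives and is doubtful. It did pass with RLE scaling (edgeR adjusted p = 0.023), with library totals alone (edgeR adjusted p = 0.0023), with putative doublets removed (edgeR adjusted p = 0.015) and with calling minima 1.5 times as high (edgeR adjusted p = 0.0023). Its p ranged from 3.8e-13 with the stricter minimum for positive barcodes to 0.9999 without library as a block.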

How the data were processed

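Per the submitters' processing notes, the deposited UMI counts were made with Cell Ranger 3.0.2; the reference build and the read counting settings are not given in the sources used here. The aggregated count matrix deposited by the authors holds 23786 features, and its barcode suffix was taken as the library number. UMI counts were summed over positive and over other called barcodes of each library, filtered with filterByExpr, scaled by TMM and compared with edgeR 4.0.16 (quasi-likelihood, library as a block, Benjamini-Hochberg threshold 0.05), leaving TRINITY_DN27834_c0_g1 out. SEs come from the log2 fold change and its F statistic. Named features were, among those past the threshold and changed the same way in both libraries, the 20 with the largest fold change and a UMI in at least 5% of positive barcodes of each library, and the 5 with the most negative one and that share among the others, besides the component's features and those that mark other groups. Values picked out later are named as such. Clusters used scanpy 1.11.5 and leidenalg 0.10.2 (2000 variable features, 30 components, 15 neighbours, resolution 1). Doublets were kept: Scrublet's automatic threshold marked 0% and 0.0305% of called barcodes, so it did not work here. On simulated sums for 9935 features, 82% of 4-fold and 99% of 8-fold changes were recovered with 9 false calls. The simulation changed 200 features and gave all features the same spread, so it does not measure errors among the real calls. The positive barcodes and the lists were chosen with earlier results of these data known. Library size limits precision: 193 of the 801 higher features had under 10 UMIs in positive barcodes of library 1.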

Additional observations from a re-analysis of the deposited data

Results flagged for a closer look

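The feature was also looked up in barcodes that no comparison of the report uses, those from 0.5 of the calling minimum up to it. In library 1, 0.827% of 9677 such barcodes had a UMI of TRINITY_DN27834_c0_g1, against 0.385% of the empty droplets. In library 2, 2.65% of 8534 had one, against 1.27% of the empty droplets. These barcodes were also deeper than the empty droplets, with median totals of 106 against 60 UMIs in library 1 and 635 against 326 UMIs in library 2. Per UMI the difference was small, with 0.786 against 0.647 UMIs per 10000 in library 1 and 0.442 against 0.412 in library 2.

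The 20 named higher features were compared between those with and without a UMI of the feature. Their summed level was 867 CPM with it and 584 CPM without it in library 1, from 8 and 618 UMIs, a ratio of 1.48 (exact 95% interval 0.638 to 2.94). In library 2 it was 944 CPM with it and 252 CPM without it, from 151 and 1414 UMIs, a ratio of 3.74 (3.15 to 4.43). For the 5 named lower features the ratio was 1.08 (0.755 to 1.5) in library 1 and 1.07 (0.952 to 1.2) in library 2. These intervals cover counting error only. The ratio of library 2 lies above the interval of library 1.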

How the results depend on the processing

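The 801 features higher and 640 lower in positive barcodes stayed within 1.5 times under RLE scaling, no low-count filter, others without a UMI of the feature and calling minima 1.5 times as high. Removing the 161 and 86 barcodes with the highest Scrublet scores gave 781 and 659, which shows nothing of doublets, since the caller did not work. Counts that moved further were, higher and lower, 509 and 89 with DESeq2, 0 and 0 with no replicate block, 325 and 120 with thinned barcodes, 360 and 202 at the middle 50% of totals and 505 and 338 with the stricter minimum. Lower features alone moved to 1096 with library totals only and 242 with the looser minimum. Chosen after seeing the data, cluster 4 alone gave 8 and 21, and barcodes outside it 6 and 24; there the log2 fold changes of TRINITY_DN23962_c0_g3 (-0.30), TRINITY_DN18264_c0_g2 (-0.15) and TRINITY_DN33011_c2_g3 (-0.20) reversed without passing the test, TRINITY_DN30128_c0_g2 kept its call (log2 2.26, edgeR adjusted p = 0.0059), and 6 of 8 of the 20 named that could be tested were higher, 0 of them called. The replicate block pairs sums of the same library; without it 922 features had an unadjusted p under 0.05. At the middle 50% of totals TRINITY_DN28366_c0_g2 (log2 3.11), TRINITY_DN21780_c0_g1 (2.61) and TRINITY_DN25184_c0_g2 (2.60) lost their call; thinned, TRINITY_DN25184_c0_g2 (2.80) and TRINITY_DN20283_c0_g1 (-3.26) did. Counts with 1 library left out could not be fitted, since no residual degree of freedom is left.

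The stricter minimum left 27 positive barcodes in library 1 and 32 in library 2, and the looser one gave 182 in library 2. With the stricter one the ratio of median totals, positive over other barcodes, was 3.41 and 1.86, and that of features per barcode 2.64 in library 1. At resolution 2.0 the leading cluster held 44.0% and 65.7% of positive barcodes; clustering each library alone gave 56.9% in library 1 and 67.2% in library 2. The cause of these moves was not tested. Depth limits single barcodes most in library 1, where 82 of 109 rest on 1 UMI.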
